A study of Mus musculus with 8 samples.

Results

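The genes described here are 36 genes of fatty acid uptake and mitochondrial beta-oxidation, taken by gene name from a fixed list out of 24341 genes listed in each of 8 RNA sequencing libraries of mouse tibialis anterior, a muscle at the front of the shin made mostly of fast-twitch fibres. They comprise 5 genes of uptake and binding, 5 acyl-CoA synthetases, 7 genes of the carnitine shuttle and its control, 9 of the beta-oxidation cycle, 3 for unsaturated fatty acids, 3 of electron transfer, 2 thioesterases and 2 uncoupling proteins. All 36 were found, each once, and all 36 passed the filter on low values. The animals were 12 weeks old, fed chow and described as male, and all 8 carried floxed Carm1. The 4 controls, Carm1 skm+/+ (HSAcre 0/0), had no Cre. The 4 knockouts, Carm1 skm-/- (HSAcre Tg/0), also carried a Cre transgene whose name stands for human skeletal actin, a promoter of muscle fibres, so that Cre and loss of Carm1 cannot be told apart and other cells of the muscle keep the gene. Carm1 encodes a protein arginine methyltransferase that acts as a transcriptional coactivator. The comparison asks how the transcripts of fatty acid use differ in muscle with and without Carm1.

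Long-chain fatty acids enter a muscle fibre with the help of membrane carriers, are held in the cytosol by binding proteins and are activated to acyl-CoA by synthetases. The carnitine shuttle carries the acyl group across the inner mitochondrial membrane, where dehydrogenation, hydration, a further dehydrogenation and thiolysis shorten it in turns and hand electrons to the respiratory chain. Many of these genes are targets of the peroxisome proliferator-activated receptors and of the coactivator PGC-1alpha in muscle, and they are more abundant in slow and type IIa fibres than in the fastest fibres.

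Levels are given as scaled FPKM, the deposited FPKM (fragments per transcript length and library size) divided by a median-of-ratios factor of each library, and differences as knockout minus control on the scale of log2(scaled FPKM + 1), tested with limma over all genes with a threshold of 0.05 on the Benjamini-Hochberg adjusted p. Carm1 was lower in every knockout than in every control library, at 27.1, 37.4, 27.3 and 30.1 in controls 1 to 4 and 18.0, 12.7, 17.2 and 13.8 in knockouts 1 to 4, and the 2-sided exact permutation test gave p = 0.0286, the lowest value possible with 70 assignments. The listed locus of Carm1 is shared with 2 other listed genes, 1810026J23Rik and Yipf2, which averaged 32.4 and 5.63 FPKM. The part of shared reads in the values of Carm1 was not tested, and the deleted exons are not given in the sources used here. Fast-fibre transcripts marked the tissue as labelled, with Tnnc2, fast troponin C, between 16283 and 35773 scaled FPKM. Of 8 muscle-fibre markers all but Acta1 and Ckm had a usable value in every library. These 6 summed to between 60264 and 86115 in controls and between 39419 and 61113 in knockouts. Against the label, Xist, the RNA of the inactive X chromosome of females, was detected in 3 libraries, control 1, knockout 2 and knockout 4, at 19.6 to 22.9 FPKM, and stayed at or below 0.0662 FPKM in the other 5, where the Y-linked Eif2s3y lay between 42.3 and 58.1 FPKM. These 3 libraries also had Myh2, the type IIa myosin heavy chain, at 764, 1540 and 1535 FPKM, against 122 to 167 FPKM in the other 5. Results are therefore repeated with Xist (present or absent) as a covariate, and in the 3 controls and 2 knockouts that lack it. The depth of the libraries relative to the deepest, estimated from their smallest values, was 80.9% to 100%, and absolute depth is not known.

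No fatty acid gene passed the test over all genes. Of 11096 genes tested with limma, 40 were called (0.36%), 22 higher (0.198%) and 18 lower (0.162%) in the knockout, and 0 of the 36 were among them; without scaling the split was 36 higher and 13 lower. At an unadjusted p under 0.05 there were 6 of the 36 (1 higher and 5 lower), a share of 16.7% against 13.1% of all genes tested (7.03% higher and 6.07% lower). The difference was below 0 in 28 of the 36, against 50.5% of all genes, and its median was -0.13 against -0.00 over all genes, with a range from -0.52 to 0.86. Other genes of the muscle fibre were tilted too in the comparison of all 8 libraries, but not all the same way. Of 9 slow-fibre markers tested, 7 were above 0 (median 0.53). Below 0 were 8 of 10 mitochondrial content markers (median -0.19) and 6 of 6 muscle-fibre markers (median -0.30), 0 of either past the test. With Xist as a covariate 8 of 10 (median -0.19) and 4 of 6 (median -0.18) were below 0. In the 5 libraries without Xist 7 of 10 (median -0.12) and 3 of 6 (median -0.09) were. The part of these markers in the values of the 36 was not tested. The tilt of the 36 rested in part on 1 library of each group. Control 1 was the highest library for 19 of the 36 genes and knockout 1 the lowest for 21. Without control 1 the count below 0 was 21 of 36 and the median -0.04, and without knockout 1 they were 22 and -0.06. With the deposited FPKM unscaled, which moves the median of all genes to 0.07, they were 20 and -0.04. With Xist as a covariate the count below 0 was 31, against 51.8% of all genes, and the median -0.17. In that fit 223 genes were called (2.01%), 121 higher (1.09%) and 102 lower (0.919%), with 1 of the 36 among them, Acsl3. At an unadjusted p under 0.05 it held 11 of the 36 (30.6%, 1 higher and 10 lower), against 18.6% of all genes (10.2% higher and 8.41% lower). In the 5 libraries without Xist 0 of the 36 and 3 genes in all (0.027%) were called. Carm1 itself, called in all 8 libraries (adjusted p 0.0466 from limma), was not called in these 5 (adjusted p 0.168 from limma). There 29 of the 36 were below 0, against 51.9% of all genes, with a median of -0.14. The 4 control and 4 knockout values did not overlap in 3 of the 36 genes (8.33%), 1 higher and 2 lower, against 8.31% of all genes tested (4.67% higher and 3.64% lower). In bulk tissue, fewer cells of a type and less RNA per cell cannot be told apart.

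**Figure D1:**
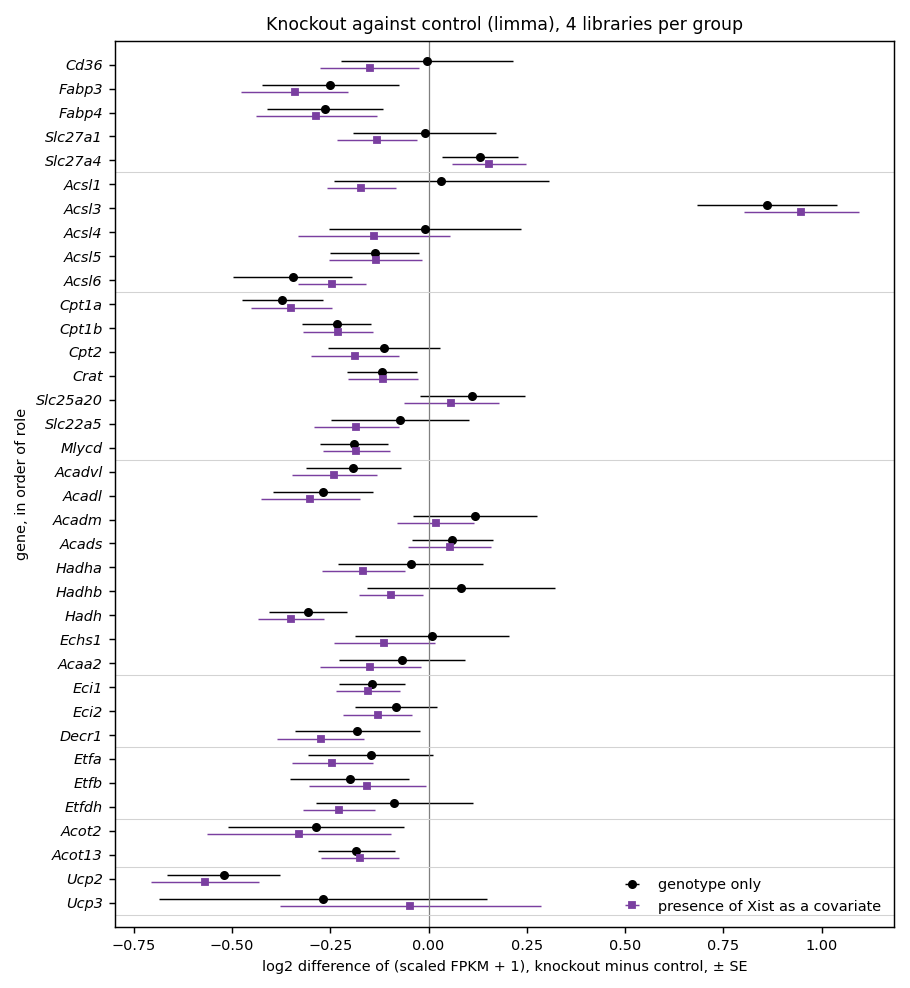
Difference between knockout and control for each of the 36 genes in order of role, on the log2(scaled FPKM + 1) scale with its SE from limma, with genotype alone (circles) and with presence of Xist as a covariate (squares); grey lines part the roles. Acsl3 stands alone on the right at 0.86 and 0.95, and Ucp2 is farthest to the left at -0.52 and -0.57.

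The 36 transcripts covered a wide range of levels, from 2.61 scaled FPKM for Cpt1a in knockout 1 to 1111 for Fabp4 in control 4. Averaged over the 8 libraries, 18 genes lay at or above 100 scaled FPKM, 11 between 10 and 100, and 7 below 10. FPKM are per length of transcript, so these levels can be set against each other. The most abundant were the binding proteins Fabp4 and Fabp3, followed by the electron carrier subunit Etfb, the thioesterase Acot13 and the dehydrogenase Acadvl; neighbours in this order overlapped between libraries. The 7 lowest were Acot2, Acsl3, Slc22a5, Acsl4, Slc27a4, Acsl5 and Cpt1a. The coefficient of variation between animals had a median of 17.9% in controls and 14.1% in knockouts, and ran from 5.44% (Hadh) to 34.4% (Acsl3) in controls and from 5.02% (Eci2) to 47.9% (Ucp3) in knockouts.

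**Figure D2:**
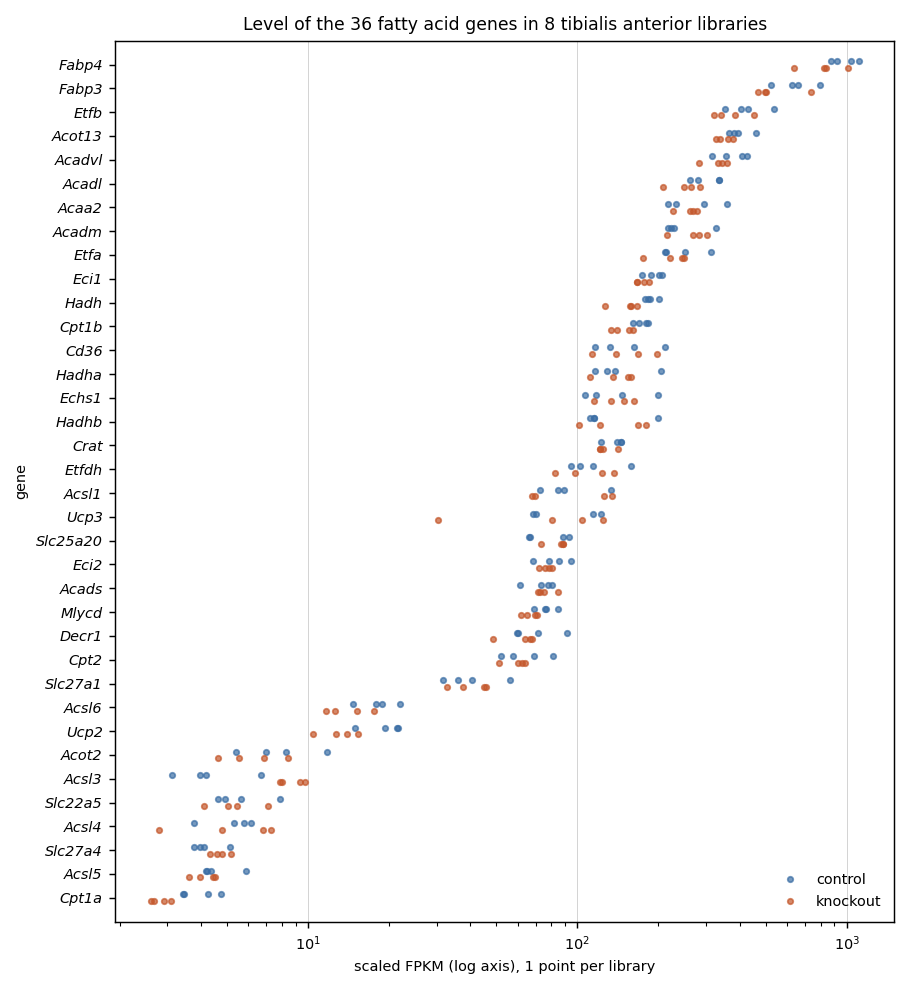
Level of each of the 36 genes in scaled FPKM (log axis), 1 point per library, 4 controls and 4 knockouts, sorted by the mean over all 8. The 2 groups overlap for all genes but Acsl3, higher in the knockouts, and Cpt1a and Hadh, lower.

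Among the genes of uptake and binding none passed, and none had groups that were apart. Fabp3, the fatty acid binding protein of heart and skeletal muscle, was at 799, 629, 661 and 522 scaled FPKM in controls 1 to 4 and at 470, 503, 497 and 735 in knockouts 1 to 4. Knockout 4 lay among the controls, and the other 3 knockouts lay below all of them. The mean was 652 ± 114 against 551 ± 123 (SD, n = 4 each), a log2 difference of -0.25 (SE 0.17) with an adjusted p of 0.585 from limma. Fabp4, the binding protein of adipocytes and of capillary endothelium, was at 874, 918, 1040 and 1111 in controls 1 to 4 and at 639, 824, 836 and 1014 in knockouts 1 to 4. It was lowest in knockout 1, and 3 of the knockouts lay below every control. The log2 difference of Fabp4 was -0.26 (SE 0.15, adjusted p = 0.493 from limma), and -0.48 in the 5 libraries without Xist (adjusted p 0.347 from limma). In the same libraries 8 adipocyte markers summed to between 18.3 and 43.5 scaled FPKM in controls and between 9.68 and 28.3 in knockouts, knockout 1 had the highest of the knockouts, with 3 of the 8 below 1 FPKM in all libraries. The adipocyte hormone gene Adipoq, too low to be tested, stood at 3.29 in knockout 1 and at most 1.74 elsewhere. The 3 adipocyte markers that were tested all had log2 differences below 0 (median -0.67, from -1.18 to -0.57), 0 past the test. The 10 endothelial markers were more abundant and summed to between 329 and 377 in controls and between 273 and 368 in knockouts, with 9 of 10 differences below 0. Fibro-adipogenic progenitor markers summed to between 472 and 896 in controls and between 381 and 705 in knockouts, with all 8 differences below 0 and 0 past the test; the part of any of these cell types in the values of Fabp4 and Cd36 was not tested.

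Cd36, the fatty acid translocase of the plasma membrane, had almost equal group means of 156 ± 42.2 and 154 ± 36.2 scaled FPKM, and the 95% interval of its log2 difference ran from -0.50 to 0.49. Its 3 highest values, 212, 197 and 168, were those of control 1, knockout 2 and knockout 4, the libraries with Xist. The transport proteins Slc27a1 (FATP1) and Slc27a4 (FATP4) were at 41.2 and 4.24 in controls and 40.3 and 4.72 in knockouts, with log2 differences of -0.01 and 0.13.

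The acyl-CoA synthetases held the largest difference of the 36. Acsl3, a synthetase of the endoplasmic reticulum and of nascent lipid droplets, was at 3.11, 6.71, 4.18 and 3.98 scaled FPKM in controls 1 to 4 and at 9.36, 8.02, 9.71 and 7.88 in knockouts 1 to 4. Every knockout lay above every control, and the highest control, control 2, was closest to them. The mean of 4.50 ± 1.55 in controls and 8.74 ± 0.928 in knockouts (SD, n = 4 each) puts the knockouts at 195% of the controls, with a log2 difference of 0.86 (SE 0.18, 95% interval 0.46 to 1.26) and an adjusted p of 0.0915 from limma, which misses the threshold. With Xist as a covariate Acsl3 passed, at 0.95 (adjusted p = 0.029 from limma), and without control 2 it passed at 1.04 (adjusted p 0.0407 from limma). In the 5 libraries without Xist the log2 difference was 0.85 and did not pass (adjusted p 0.231 from limma). The listed locus, chromosome 1 from 78657825 to 78707743 (mm10), is shared with Utp14b, which averaged 0.222 FPKM.

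The most abundant synthetase, Acsl1, which feeds mitochondrial oxidation in muscle, was at 133, 84.6, 72.6 and 89.0 scaled FPKM in controls 1 to 4 and at 69.6, 126, 68.0 and 134 in knockouts 1 to 4. Both groups held high and low values, and the 3 high ones were again control 1, knockout 2 and knockout 4. The log2 difference was 0.03 (95% interval -0.58 to 0.65), and its sign turned to -0.17 with Xist as a covariate and -0.25 without the 3 libraries, with adjusted p-values of 0.339 and 0.465 from limma. Acsl6, a synthetase best known from brain, was at 14.6, 18.8, 22.0 and 17.9 in controls and at 15.3, 11.7, 17.5 and 12.6 in knockouts, a log2 difference of -0.34 (SE 0.15, adjusted p = 0.379 from limma). Its 3 lowest values were those of the libraries with Xist, the reverse of Acsl1. Acsl4, which prefers arachidonate, and Acsl5 stood at 5.25 and 4.67 in controls and 5.42 and 4.13 in knockouts. As a share of the 5 synthetases, Acsl3 made up 3.67% ± 1.53 in controls and 7.12% ± 2.52 in knockouts (SD, n = 4 each), with overlap between the groups, and Acsl1 73.4% ± 6.43 and 73.8% ± 7.95.

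In the carnitine shuttle 6 of 7 differences were below 0, none past the test, and those of both isoforms of carnitine palmitoyltransferase 1, the step that commits acyl groups to oxidation, were among the 6 with an unadjusted p under 0.05. Cpt1a, the isoform of liver, was at 3.47, 4.25, 3.42 and 4.75 scaled FPKM in controls 1 to 4 and at 2.61, 2.68, 3.10 and 2.91 in knockouts 1 to 4. All knockouts were below all controls. The log2 difference was -0.37 (SE 0.10, 95% interval -0.61 to -0.14), with an adjusted p of 0.177 from limma and of 0.131 with Xist as a covariate. Cpt1b, the muscle isoform, was at 169, 182, 180 and 161 in controls and at 134, 140, 161 and 155 in knockouts. The groups met at 161, control 4 and knockout 3, and were apart otherwise. Cpt1b had a log2 difference of -0.23 (SE 0.09, adjusted p = 0.308 from limma) and made up between 97.1% and 98.2% of the 2 isoforms in every library. Its listed locus on chromosome 15 is shared with Chkb, at a mean of 20.8 FPKM, and with their read-through transcript. TruSeq RNA libraries of this version do not mark strand, so reads of overlapping genes cannot be told apart by strand. In all, 8 of the 36 genes share their listed locus with another listed gene. The start and end are the same for both genes in each case, so the listing does not show how far the transcripts themselves overlap.

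Of the other shuttle genes, Mlycd, the malonyl-CoA decarboxylase that relieves inhibition of carnitine palmitoyltransferase 1, was at 76.4 ± 6.41 in controls and 66.8 ± 4.21 in knockouts, a log2 difference of -0.19 (adjusted p = 0.397 from limma). Cpt2, the inner-membrane transferase, Crat, the carnitine acetyltransferase, and Slc22a5, the plasma membrane carnitine transporter OCTN2, had log2 differences of -0.11, -0.12 and -0.07. Slc25a20, the carnitine-acylcarnitine translocase, was the exception in sign at 0.11, with 78.6 ± 14.2 and 84.2 ± 7.51 scaled FPKM.

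**Figure D3:**
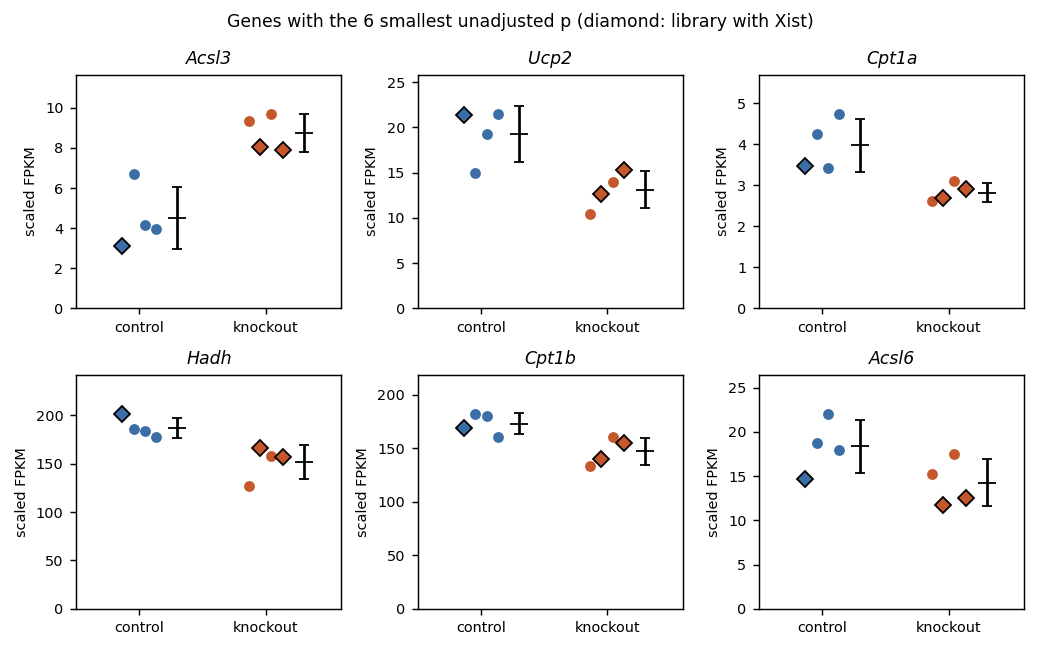
Scaled FPKM by library of the 6 genes with an unadjusted p under 0.05, controls left and knockouts right, with mean ± SD (n = 4 each) beside the points and diamonds for libraries with Xist. Acsl3 (3.11 to 6.71 against 7.88 to 9.71), Cpt1a and Hadh have groups that do not overlap, and the other 3 overlap.

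In the beta-oxidation cycle 5 of 9 differences were below 0 and 4 above, and none passed. Hadh, the 3-hydroxyacyl-CoA dehydrogenase for short and medium chains, was at 202, 186, 184 and 178 scaled FPKM in controls 1 to 4 and at 127, 166, 158 and 157 in knockouts 1 to 4. The controls lay close together, all above the knockouts, and knockout 1 was lowest. The mean was 187 ± 10.2 against 152 ± 17.4, a log2 difference of -0.31 (SE 0.10, 95% interval -0.53 to -0.08) with an adjusted p of 0.237 from limma and of 0.0851 with Xist as a covariate. Acadl, the long-chain acyl-CoA dehydrogenase, was at 336, 281, 336 and 262 in controls and at 208, 249, 286 and 264 in knockouts, which overlap; its log2 difference was -0.27 (SE 0.13, adjusted p = 0.417 from limma). Acadvl, its very-long-chain counterpart and the most abundant gene of the cycle, was at 427, 358, 410 and 317 in controls and at 283, 360, 344 and 333 in knockouts. These also overlap, and the log2 difference of Acadvl was -0.19 (SE 0.12), far from the threshold (adjusted p = 0.54 from limma). The medium-chain and short-chain dehydrogenases Acadm and Acads had differences of the other sign, 0.12 (SE 0.16) and 0.06 (SE 0.10). Each was smaller than its SE, so that their direction is not settled.

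Hadha and Hadhb, the alpha and beta subunits of the mitochondrial trifunctional protein, lie head to head on chromosome 5 with 272 bases between their listed loci, and their values moved together from library to library. Hadha was at 204, 129, 138 and 117 scaled FPKM in controls 1 to 4 and at 112, 154, 136 and 159 in knockouts 1 to 4. Hadhb was at 200, 112, 115 and 115 in controls and at 101, 180, 122 and 168 in knockouts. For both genes control 1, knockout 2 and knockout 4 were the 3 highest and knockout 1 the lowest. Their log2 differences between the groups were -0.05 and 0.08 (adjusted p 0.939 and 0.912 from limma), and Hadhb stood at between 83.7% and 117% of the level of Hadha. The 300 bases around the start of Hadhb (250 before it and 50 after) are shown because the same stretch also faces Hadha; capitals mark the 228 bases that also lie in the window of Hadha on the other strand. Sequences are RefSeq's on GRCm38.p6, the assembly of mm10.

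Hadhb, chr5:30155003-30155302 (plus strand): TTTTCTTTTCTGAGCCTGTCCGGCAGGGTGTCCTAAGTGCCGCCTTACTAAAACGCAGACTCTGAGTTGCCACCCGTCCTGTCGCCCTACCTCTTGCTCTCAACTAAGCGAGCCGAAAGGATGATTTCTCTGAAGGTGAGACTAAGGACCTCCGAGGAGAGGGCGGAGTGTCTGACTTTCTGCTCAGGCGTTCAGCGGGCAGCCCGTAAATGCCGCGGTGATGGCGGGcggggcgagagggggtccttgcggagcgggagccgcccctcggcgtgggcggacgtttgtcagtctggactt

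The hydratase Echs1 was at 199, 107, 147 and 117 in controls and at 115, 163, 133 and 149 in knockouts, with a log2 difference of 0.01. Its 3 highest values were also those of the libraries with Xist, and the same held for Acadm, at 327, 304 and 284 in them and at most 269 in the other 5. Acaa2, the thiolase of the cycle, had group means of 276 ± 64.4 and 259 ± 22.4 and a log2 difference of -0.07.

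Of the 4 genes of the cycle that were highest in the libraries with Xist, the windows of Acadm and Echs1 are shown because they hold AGGTCA, the half-site of nuclear receptors such as the peroxisome proliferator-activated and estrogen-related receptors, here in capitals (TGACCT on the other strand); those of Hadha and Hadhb do not hold it.

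Acadm, chr3:153944594-153944893 (minus strand): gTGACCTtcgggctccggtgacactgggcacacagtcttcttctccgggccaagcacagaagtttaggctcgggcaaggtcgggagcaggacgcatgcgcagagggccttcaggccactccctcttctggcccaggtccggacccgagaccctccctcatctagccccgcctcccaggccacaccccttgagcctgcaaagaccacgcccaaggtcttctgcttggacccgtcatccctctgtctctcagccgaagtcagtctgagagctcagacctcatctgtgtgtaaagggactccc

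Echs1, chr7:140116372-140116671 (minus strand): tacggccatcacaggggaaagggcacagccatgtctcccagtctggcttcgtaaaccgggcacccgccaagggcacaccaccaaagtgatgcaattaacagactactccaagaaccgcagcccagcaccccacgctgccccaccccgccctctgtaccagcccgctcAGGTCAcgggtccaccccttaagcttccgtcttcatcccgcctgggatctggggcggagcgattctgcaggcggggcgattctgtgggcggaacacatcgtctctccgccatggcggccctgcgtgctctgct

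Windows were at hand for 30 of the 36 genes. AGGTCA on either strand was found in 7 of these 30 (23.3%), namely Cd36, Acsl6, Cpt1a, Acadvl, Acadm, Echs1 and Ucp3, and in 18.1% of all 27025 genes with a window. Of the 8 genes that were highest in the libraries with Xist it was found in 3, and not in the windows of Slc27a1, Acsl1, Hadha, Hadhb and Etfdh. The longer TCAAGGTCA, an estrogen-related receptor element that contains the half-site, was found in 1 of the 30, Acsl6 (3.33%, against 0.466% of all genes). The direct repeat AGGTCANAGGTCA was found in 0 of the 30 (0.0481% of all genes). A match describes the letters of the window, not binding.

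The auxiliary enzymes for unsaturated fatty acids stood close to their controls, with all 3 differences below 0 and none past the test. Eci1, an enoyl-CoA isomerase, was at 206, 187, 201 and 174 scaled FPKM in controls and at 167, 167, 185 and 176 in knockouts, a log2 difference of -0.14 (SE 0.08, adjusted p = 0.503 from limma). Decr1, the 2,4-dienoyl-CoA reductase, was at 91.1, 60.3, 71.4 and 59.6 in controls and at 48.8, 66.7, 63.7 and 67.6 in knockouts, which gave -0.18 (SE 0.16, adjusted p = 0.683 from limma). Both overlapped between the groups, as did the other isomerase Eci2, at 81.7 ± 10.9 and 76.6 ± 3.85.

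Electron transfer from the dehydrogenases to ubiquinone uses the flavoprotein of Etfa and Etfb and its oxidoreductase Etfdh. Etfb was at 432, 406, 536 and 354 scaled FPKM in controls and at 384, 321, 453 and 341 in knockouts, and Etfa at 314, 211, 251 and 214 and at 175, 245, 222 and 249. The 2 subunits differed in their highest library, control 3 for Etfb and control 1 for Etfa. They also differed in their lowest, knockout 2 for Etfb and knockout 1 for Etfa. Their log2 differences were -0.20 and -0.15 (adjusted p 0.623 and 0.751 from limma). Etfdh, at 158, 102, 114 and 94.7 in controls and 82.3, 137, 98.4 and 124 in knockouts, had a log2 difference of -0.09 and was highest in the 3 libraries with Xist.

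The mitochondrial thioesterases, which split acyl-CoA, overlapped between the groups. Acot13 was at 396, 382, 459 and 364 scaled FPKM in controls and at 338, 327, 380 and 363 in knockouts, a log2 difference of -0.18 (SE 0.10, adjusted p = 0.472 from limma). Acot2 was at 8.27, 6.96, 11.7 and 5.42 in controls and at 4.63, 5.53, 6.88 and 8.41 in knockouts, a log2 difference of -0.29 (SE 0.22, adjusted p = 0.638 from limma). Acot2 spread more between animals than Acot13, with control 3 highest for both.

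The uncoupling protein genes Ucp2 and Ucp3, 6.92 kb apart on chromosome 7, did not vary alike. Ucp2, found in many cell types including macrophages, was at 21.3, 14.9, 19.2 and 21.5 scaled FPKM in controls 1 to 4 and at 10.5, 12.6, 14.0 and 15.3 in knockouts 1 to 4. Only control 2 and knockout 4 overlap. The means were 19.3 ± 3.06 and 13.1 ± 2.07 (SD, n = 4 each), which puts the knockouts at 68.1% of the controls, with a log2 difference of -0.52 (SE 0.14, 95% interval -0.85 to -0.19), an adjusted p of 0.176 from limma and of 0.085 with Xist as a covariate. A list of 8 macrophage markers summed to between 40.0 and 70.03 scaled FPKM in controls and between 34.0 and 63.3 in knockouts. The median log2 difference was 0.10 over the 7 tested, with 1 below 0. In the 5 libraries without Xist 5 of the 7 were below 0 (median -0.01), and Ucp2 was at -0.56. The part of macrophages in the values of Ucp2 was not tested. Ucp3, the muscle isoform, was at 70.2, 115, 123 and 68.7 in controls and at 104, 80.2, 125 and 30.3 in knockouts. It had the widest interval of the 36 (-1.21 to 0.68), knockout 4 lay far below the rest, and without the 3 libraries with Xist its log2 difference was 0.20, where in all 8 it was -0.27 (adjusted p = 0.834 from limma).

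**Figure D4:**
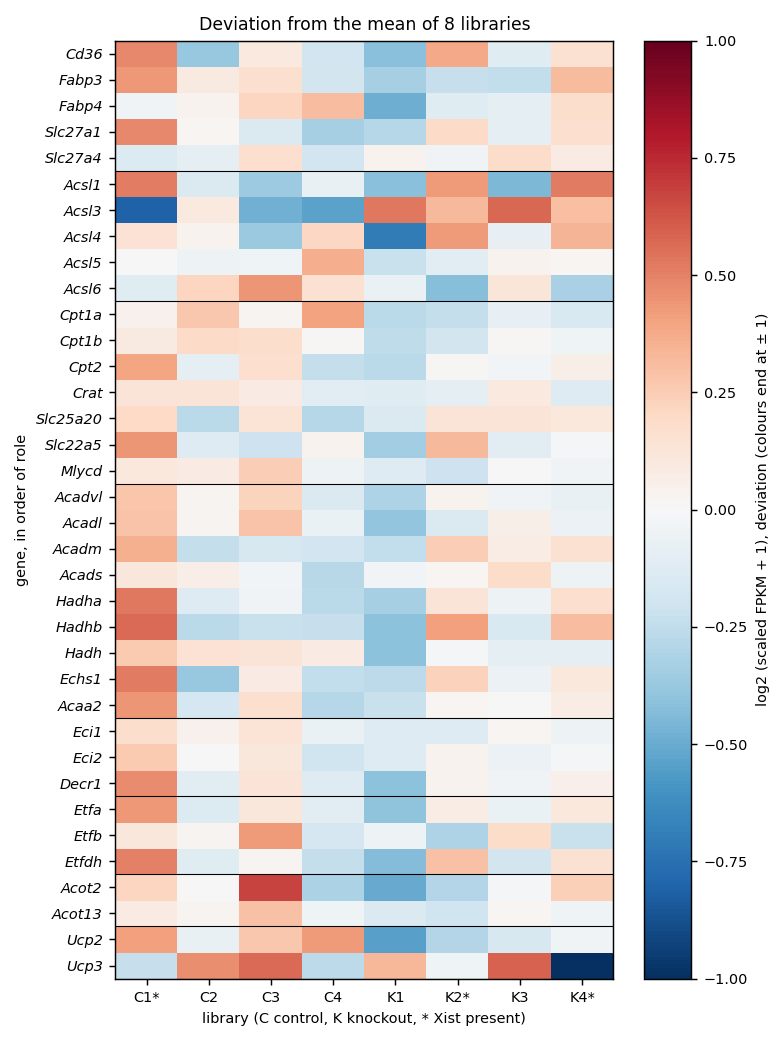
Deviation of log2(scaled FPKM + 1) from the mean of 8 libraries for the 36 genes in order of role (lines part the roles), with asterisks for the libraries with Xist. Control 1 is above the mean for most genes and knockout 1 below it, while Acsl3 is reversed in both.

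Across roles, the arrangement of control 1, knockout 2 and knockout 4 above all other libraries held for 8 of the 36 genes (22.2%, against 11.4% of all genes tested): Cd36, Slc27a1, Acsl1, Acadm, Hadha, Hadhb, Echs1 and Etfdh. The opposite arrangement held for Acsl6 (9.37% of all genes tested). The mean level in those 3 libraries was 1.71 times that of the other 5 for Acsl1, 1.62 for Hadhb, 1.45 for Cd36 and 1.42 for Etfdh, while it was 0.995 for Fabp4 and 0.563 for Ucp3. Among 10 slow and oxidative fibre markers the mean deviation lay between 0.59 and 0.91 in the 3 libraries and between -0.73 and -0.12 in the other 5, and 4 of the 10 carried most of it: Myh2, Myh7, Myl2 and Myl3 stood at 8.33, 4.27, 4.86 and 4.18 times the mean of the other 5. The other 6 had ratios between 0.972 and 1.42 with the libraries mixed in order, and of the 9 markers tested 2 (22.2%) were highest in the 3 libraries. Mitochondrial content markers did not, at -0.14 to 0.16 and -0.17 to 0.15. Between the genotypes 7 of the 9 slow-fibre markers tested were above 0, with a median of 0.53 (0.16 with Xist as a covariate) and 0 past the test. The 2 below 0 were Myl3 (-0.65) and the myoglobin gene Mb (-0.28). In the 5 libraries without Xist 5 of the 9 were above 0 (median 0.23). Of the 9, only Tnnt1 had groups that did not overlap (11.1%, against 8.31% of all genes tested). The slow troponin Tnnt1 was at 6.90 to 16.1 scaled FPKM in controls and at 17.0 to 56.4 in knockouts, with no overlap (log2 difference 1.17, adjusted p = 0.23 from limma). Its highest value was that of knockout 1, the lowest library for 21 of the 36 genes and for Mb, myoglobin, at 8006. Of the 3 libraries with Xist, knockouts 2 and 4 were also the only libraries with a Myh4 value above 0 FPKM. Knockouts 2 and 4 were likewise the only libraries with 0 genes that Cufflinks marked as low in data. The part of fibre type, of sex as marked by Xist, of the Myh4 difference and of these marks in the values was not tested.

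**Figure D5:**
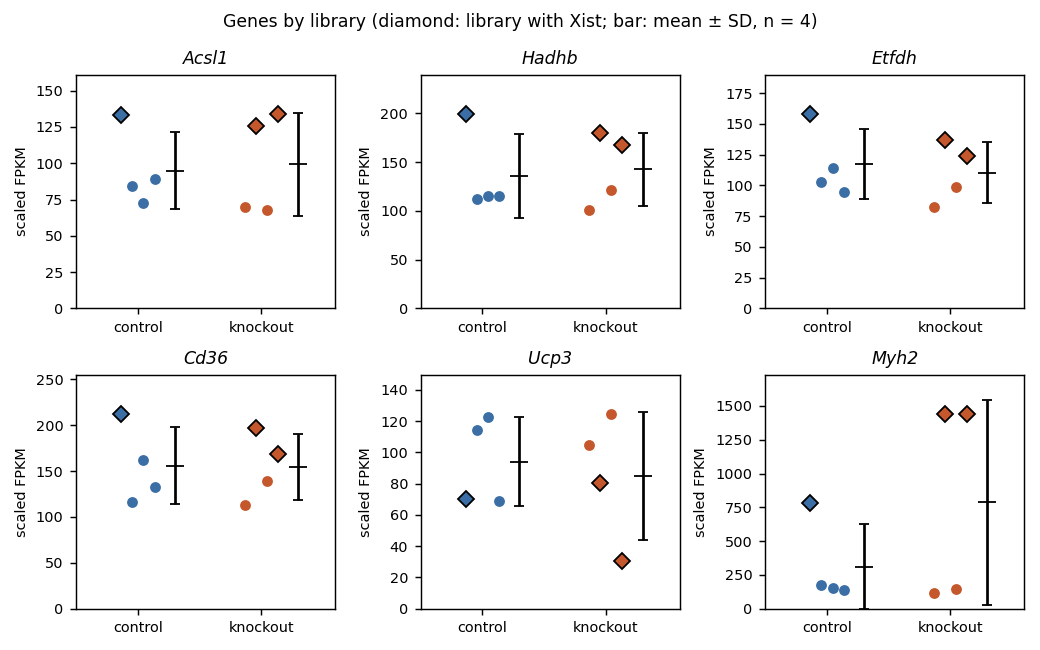
Scaled FPKM by library of 4 genes that were highest in the libraries with Xist (diamonds), of Ucp3 and of the type IIa myosin Myh2, with mean ± SD (n = 4 each). Acsl1 stands at 126 to 134 in the diamonds and at most 89.0 elsewhere, whatever the genotype.

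Other genes of the pathway also held no call. Of 14 genes of the receptors and of malonyl-CoA and lipase control, 13 were tested, with a median log2 difference of 0.05 (-0.09 with Xist as a covariate), 0 past the test and 1 at an unadjusted p under 0.05 (7.69%, against 13.1% of all genes tested). The smallest p were those of Gpihbp1, which anchors lipoprotein lipase to capillaries, at 153 ± 14.1 and 130.3 ± 8.88 scaled FPKM (log2 difference -0.23, adjusted p = 0.352 from limma), and of the acetyl-CoA carboxylase Acaca, at 0.877 ± 0.127 and 1.13 ± 0.154. Of 13 peroxisomal genes 12 were tested, with a median of 0.03, 0 past the test and 1 at an unadjusted p under 0.05 (8.33%): Acox3, a peroxisomal acyl-CoA oxidase, was at 8.66 ± 0.766 in controls and 11.4 ± 1.19 in knockouts with no overlap (log2 difference 0.35, adjusted p = 0.166 from limma). Next by p was the thiolase Acaa1a at -0.12. With Xist as a covariate the peroxisomal median turned to -0.06, with 9 of 12 below 0 and 3 (25.0%) at an unadjusted p under 0.05, against 18.6% of all genes. In 7 of these 12 genes (58.3%, against 11.4% of all genes tested) the 3 libraries with Xist were the highest. Of 20 further mitochondrial and fatty acid genes 17 were tested, with a median of -0.07, 0 past the test and 6 (35.3%, against 13.1% of all genes tested) at an unadjusted p under 0.05, of which 3 were higher and 3 lower. With Xist as a covariate the median was -0.18 and 9 of the 17 (52.9%, against 18.6% of all genes), 4 higher and 5 lower, were at an unadjusted p under 0.05, with 0 past the test. Acad10, at 2.08 ± 0.244 and 2.73 ± 0.315, and Acot11, at 4.52 ± 1.15 and 6.97 ± 1.75, had the smallest p (adjusted p 0.246 and 0.269 from limma).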

How the data were processed

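RNA came from snap-frozen tibialis anterior of 8 separate animals, 4 of each genotype, extracted with Trizol and built into TruSeq libraries, per the labels' protocols. The submitters' processing notes name STAR, Cufflinks and the build mm10; their versions and the annotation are not given. The authors deposited FPKM per gene for each library, in Cufflinks' layout per the file headers. No counts are given, so no count model was fitted. Any gene that Cufflinks did not mark OK in all libraries was dropped (23 genes, none of the 36). Deposited FPKM were scaled by median-of-ratios factors and put on the log2(scaled FPKM + 1) scale, on which differences of low genes come out too small. The test, limma 3.58.1 (R 4.3.3, eBayes with trend), covered genes reaching 1 scaled FPKM in 4 or more libraries. Its code was checked on simulated data with independent noise for each gene and library. That check does not cover shifts that many genes share within a library. Other steps used Python 3.11.15 (pandas 2.3.3, numpy 2.4.6, matplotlib 3.10.9, scipy 1.17.1).

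The genes, marker lists and alternatives were chosen with earlier results of these data known, so no p was adjusted over the list alone and no set test was run. All 36 genes are accounted for; values in every library with test were fixed for those called with or without Xist as a covariate and, per role, for the 2 with the smallest p and the most abundant, and those of Cd36, Hadha, Hadhb, Echs1 and Etfdh were added after their values were seen, as were the motifs. Of the pathway lists the 2 genes with the smallest p are named. The slow-fibre and adipocyte markers named were chosen after their values were seen. Presence of Xist means at least 1 FPKM. A Myh4 value means more than 0 FPKM. Myh4 was listed at 0 in 6 libraries and at 2937 and 3056 FPKM in knockouts 2 and 4, and whether a listed 0 means absence was not tested. Cufflinks' mark for low data was given to 10, 7, 7 and 5 genes in controls 1 to 4. In knockouts 1 to 4 it was given to 10, 0, 6 and 0 genes. Whether knockouts 2 and 4 were processed in another way was not tested. Alternatives were no filter, a filter on the mean at 5 scaled FPKM, a pseudocount of 0.1, no scaling, quantile normalization, robust eBayes, the replicate block, Xist as a covariate, the 5 libraries without Xist, the 6 without a Myh4 value, and leaving out each library.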

Additional observations from a re-analysis of the deposited data

Results flagged for a closer look

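In each group of 4 libraries, a value of one of the 36 genes was marked where its gap to the nearest other value, as a share of the group's range, passed Dixon's 95% limit. Among 72 groups, 6 values were marked, where chance marks about 1 group in 20. Fabp3 stood at 735 scaled FPKM in knockout 4, against 470 to 503 in the other knockouts. Acsl5 was at 5.91 in control 4, above 4.18 to 4.37 in the other controls. Crat reached 142 in knockout 3, with the other knockouts at 121 to 125. For Slc25a20 knockout 1 lay low, at 73.0 against 86.8 to 88.5. In control 1, a library with Xist, Acadm was at 327 against 216 to 229, and Hadhb at 200 (199.9) against 112 to 115.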

How the results depend on the processing

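The median log2 difference of the 36 genes stayed below 0 under every alternative run, from -0.21 without the 2 libraries with a Myh4 value (knockout 2 and knockout 4) to -0.04 without scaling, and from -0.18 to -0.04 when 1 library was left out. No gene of the 36 was called under any alternative, except Acsl3 with Xist as a covariate (1 call) and without control 2, so that leaving out 1 library gave 0 to 1 calls. The count of 40 called genes among all tested became 8 with no filter, 15 at a mean of at least 5 scaled FPKM, 223 with Xist as a covariate, 3 in the 5 libraries without Xist and 13 without the 2 libraries with a Myh4 value. It was between 2 and 27 with 1 library left out: 11, 12, 6 and 2 without controls 1 to 4 and 7, 12, 27 and 4 without knockouts 1 to 4. Without scaling the median of all genes moved to 0.07 and 36 genes were higher and 13 lower. With the replicate block 0 genes passed in limma, and the numbers do not pair the libraries: the deviations of same-numbered controls and knockouts had correlations of -0.43, -0.19, 0.35 and 0.19 for numbers 1 to 4. Carm1 differed by -0.80 in the 5 libraries without Xist (exact permutation p 0.1, the smallest possible) and by -0.75 without the 2 with a Myh4 value (exact permutation p 0.0667, likewise), and by -1.02 to -0.84 with 1 library left out.

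Signs of small differences turned, the cause of which was not tested. Without scaling Cd36 was at 0.0842, Slc27a1 at 0.0770, Acsl4 at 0.0646, Slc22a5 at 0.0034, Hadha at 0.0433, Acaa2 at 0.0211, Eci2 at 0.0048 and Etfdh at 0.0014. With quantile normalization Cd36 was at 0.0774, Slc27a1 at 0.0324, Hadha at 0.0514, Acaa2 at 0.0111 and Etfdh at 0.0051. With Xist as a covariate Acsl1 was at -0.17, Hadhb at -0.10 and Echs1 at -0.11; in the 5 libraries without Xist Acsl1 was at -0.25, Hadhb at -0.0371 and Ucp3 at 0.20; without the 2 libraries with a Myh4 value Acsl1 was at -0.42, Acadm at -0.0235, Hadhb at -0.24, Echs1 at -0.16 and Ucp3 at 0.33. With 1 library left out the ranges that crossed 0 were -0.13 to 0.16 for Cd36, -0.12 to 0.15 for Slc27a1, -0.15 to 0.22 for Acsl4, -0.19 to 0.0646 for Slc22a5, -0.14 to 0.12 for Hadha, -0.17 to 0.0670 for Acaa2, -0.20 to 0.0659 for Etfdh, -0.13 to 0.21 for Acsl1, -0.11 to 0.18 for Echs1, -0.0205 to 0.11 for Acads, -0.0420 to 0.28 for Hadhb and -0.51 to 0.16 for Ucp3. Absolute depth is unknown, which leaves the counting error of the genes below 10 scaled FPKM, Acsl3 and Cpt1a among them, without an estimate.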
